A study of Arabidopsis thaliana with 9 samples.

Results

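Mature miRNAs of se-2 leaves were set against those of wild-type (WT) leaves, with 3 libraries per genotype. Both groups came from leaves of Arabidopsis thaliana plants aged 3 weeks, and the sample titles give the genotype, se-2 or WT, as the only difference. In se-2 plants the SERRATE (SE) gene is mutated, and the title of the study names SERRATE as a component of the microprocessor, the machinery that cuts miRNA precursors. The 9 libraries of the study also hold another genotype, which is not used here. All miRNA entries of the 6 count files were taken, entries with no count in any of the 6 libraries were dropped, and 1 entry was kept per identical set of counts. Of 427 entries, 49 had no count and 378 had counts, and these gave 356 distinct count profiles. Small RNA counts do not measure the SE transcript, so they do not check the genotype label.

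In plants, a primary miRNA transcript folds into a hairpin, and the nuclease DCL1 cuts a duplex of a 5p and a 3p arm out of its stem. SERRATE, a zinc finger protein, and HYL1, a double-stranded RNA binding protein, work with DCL1 in this step. One arm, the guide, is then held by an ARGONAUTE protein and directs the cutting or repression of target transcripts, while the other, the passenger, is mostly degraded. Many conserved families act on transcription factors that shape leaves, and others act on nutrient transport or on DCL1 and ARGONAUTE transcripts.

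The sequences of the miRNAs on which the results turn are given first. They were read by coordinate from the RefSeq TAIR10.1 assembly, and capitals mark the seed, bases 2 to 8 from the 5′ end. The first 6 lie at the low end of the se-2 to WT comparison and the next 2 at the high end. The last 2 are abundant miRNAs on opposite sides of the average under TMM, a scaling described below.
miR173-5p: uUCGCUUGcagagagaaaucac
miR396a-3p: gUUCAAUAaagcugugggaag
miR390b-3p: cGCUAUCCauccugaguucc
miR164c-3p: cACGUGUUcuacuacuccaac
miR847: uCACUCCUcuucuucuugaug
miR157c-3p: gCUCUCUAuacuucugucacc
miR840-5p: aCACUGAAggaccuaaacuaac
miR2939: uAACGCACaacacuaagccau
miR158a-3p: uCCCAAAUguagacaaagca
miR166a-3p: uCGGACCAggcuucauucccc

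The hairpins of MIR173, MIR158a and MIR396a are shown from the first base of the 5p arm to the last base of the 3p arm, with both arms in capitals. In MIR173 and MIR396a one arm was lower in se-2 by far more than the other, while in MIR158a both arms were lower and their ratio was not called. MIR173 lies at chr3:8236161-8236247 on the plus strand, MIR158a at chr3:3366349-3366411 on the minus strand and MIR396a at chr2:4142331-4142463 on the minus strand, all in TAIR10.1 and all intergenic.
MIR173: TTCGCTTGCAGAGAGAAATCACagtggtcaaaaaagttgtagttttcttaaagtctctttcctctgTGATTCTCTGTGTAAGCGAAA
MIR158a: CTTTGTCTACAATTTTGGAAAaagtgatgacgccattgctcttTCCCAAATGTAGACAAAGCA
MIR396a: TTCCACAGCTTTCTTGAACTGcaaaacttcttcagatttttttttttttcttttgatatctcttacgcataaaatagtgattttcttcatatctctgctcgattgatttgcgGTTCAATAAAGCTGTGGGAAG

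Counts of the distinct profiles summed to 160656 ± 32350 in se-2 and 1367283 ± 155892 in WT (SD, n = 3 each), 8.51-fold lower in se-2. The se-2 libraries lay between 126528 and 190872 and the WT libraries between 1233258 and 1538364, with no overlap (exact two-sided permutation p = 0.1, the smallest that 3 against 3 libraries allow). The sums hold miRNA reads alone, so sequencing depth and the share of miRNA in a library cannot be told apart, and neither can fewer cells that make a miRNA and less of it per cell. With a single entry per mature sequence the difference was 12.9-fold. Between 292 and 309 entries had a count in an se-2 library, against 334 to 342 in a WT library. When WT libraries were thinned in expectation to the mean se-2 total, 275.2 to 282.8 entries would have had a count.

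Because depth is unknown, each change was computed under 5 scalings. TMM and DESeq2 size factors centre the libraries on the average miRNA, and total scaling sets the summed counts equal. Reference scaling sets equal the summed counts of the late entries (family numbers of 5000 and above) and of early entries whose status as miRNAs has been questioned. The last uses the counts as deposited, with no scaling. A log2 change is se-2 over WT with TMM unless another scaling is named, and "called" means an adjusted p below 0.05 in edgeR's quasi-likelihood test over all entries tested. Reference counts were 4063 to 4380 in se-2 libraries and 5800 to 6496 in WT libraries, and 1 late entry, miR8175, made up 34.4% to 49.9% of them in se-2 and 22.5% to 25.6% in WT. Counts of calls without that entry are given in the closing section.

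Of 259 tested entries, 192 were called with TMM (74.1%), 116 of them higher in se-2 (44.8%) and 76 lower (29.3%), with a median log2 of 0.21. DESeq2 size factors gave 93 higher (35.9%) and 117 lower (45.2%), a shift of -0.44 against TMM, and total scaling gave 119 higher (45.9%) and 70 lower (27.0%), a shift of 0.13. Reference scaling gave 16 higher (6.18%) and 182 lower (70.3%), with a shift of -2.43, and unscaled counts gave 5 higher (1.93%) and 200 lower (77.2%), with a shift of -2.97. The scalings moved the zero line and left the order of the entries nearly as it was (Pearson's r of 0.998 between TMM and reference log2 changes, a description across 259 entries of the same libraries). An entry far down the order was therefore lower under every scaling, and 70 entries (27.0%) were called lower in all 5. Only 5 entries (1.93%) were called higher in all 5, namely miR2939, miR840-5p, miR399d, miR870-3p and miR399f. All but miR840-5p had at most 4 counts in a WT library and passed the filter through se-2 alone. Their direction was thus favoured by how they entered the test. Another 60 entries were called higher under some scalings and lower under others.

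**Figure D1:**
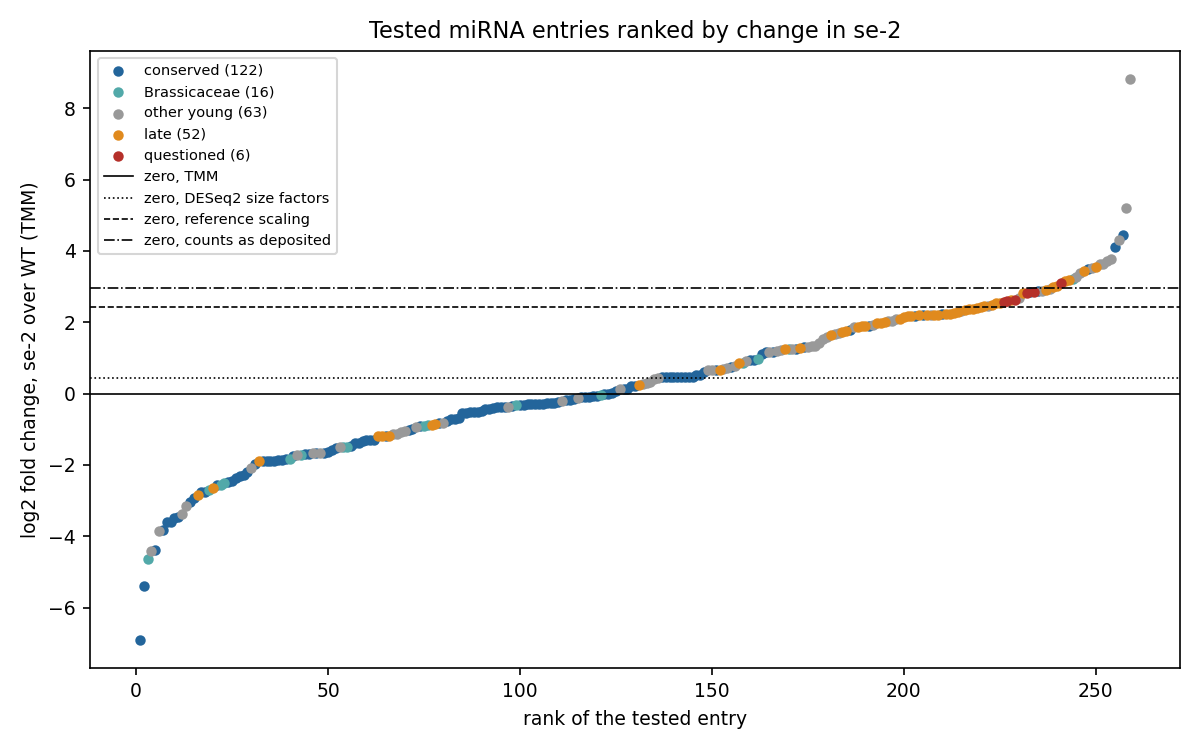
The log2 change in se-2 over WT with TMM is plotted for each of the 259 tested entries in rank order, coloured by list, with horizontal lines at the zero of 4 scalings (total scaling, shifted by 0.13, is left out). Conserved families fill the low and middle ranks, late entries lie mostly between 2 and 3, and few points stand above the zero line of the unscaled counts.

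As deposited, with no scaling, all 3 se-2 libraries lay below all 3 WT libraries for 211 tested entries (81.5%) and above them for 6 (2.32%). The 6 were the 5 entries called higher in all scalings and miR840-3p. The counts behind the extremes are few in several cases, as the values below show.

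Summed by family, with entries of the same mature sequence counted once, 124 families were tested. With TMM, 70 were higher in se-2 (56.5%) and 39 lower (31.5%), and with reference scaling 8 were higher (6.45%) and 73 lower (58.9%). DESeq2 size factors gave 61 higher (49.2%) and 48 lower (38.7%). Total scaling gave 70 higher (56.5%) and 33 lower (26.6%), and unscaled counts gave 2 higher (1.61%) and 83 lower (66.9%). In all 5 scalings, 33 families were lower (26.6%) and 2 were higher (1.61%), miR840 and miR2939, the latter with no count in WT. The median family had a log2 of 1.02 with TMM, and of -1.38 with reference scaling.

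The family that fell furthest was miR830, with 0, 0 and 1 counts in the se-2 libraries, against 37, 35 and 53 in the WT libraries (log2 -3.89, SE 0.83). miR847, a regulator of the auxin repressor IAA28, had 1, 1 and 0 counts in se-2 and 78, 80 and 72 in WT (log2 -3.84, SE 0.65). miR829 had 0, 0 and 1 in se-2 and 35, 22 and 38 in WT (log2 -3.50, SE 0.85). In these 3 families the se-2 libraries held at most 1 read each, so the order among them is not resolved. miR777 had the same 0, 0 and 1 counts in se-2, against 30, 29 and 27 in WT (log2 -3.37, SE 0.87). The late families miR5652, with a log2 of -2.84, and miR5012, with -2.65, also had no more than 2 counts in an se-2 library.

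Among the 10 lowest families, miR773, miR396, miR158 and miR173 rested on more reads. miR773, which acts on a DNA methyltransferase transcript, had 9, 8 and 11 counts in se-2 and 673, 549 and 729 in WT, a log2 of -3.15 (SE 0.27, adjusted p = 1.1e-11 in edgeR). miR396, which limits GRF growth regulators in leaves, had 800, 1035 and 1184 counts in se-2 libraries, against 52556, 43946 and 60003 in WT libraries (log2 -2.73, SE 0.14). The most abundant miRNA of the WT leaves, miR158, had 2891, 4135 and 4567 counts in se-2 and 198965, 167104 and 222907 in WT (log2 -2.71, SE 0.12, adjusted p = 5.0e-18 in edgeR). In all 4 families the libraries of the 2 genotypes were far apart, and the log2 changes of miR396 and miR158 differed by less than either SE. miR173, which starts the production of trans-acting siRNAs from the TAS1 and TAS2 RNAs, had 23, 13 and 17 counts in se-2 and 931, 657 and 915 in WT (log2 -2.57, SE 0.25). As deposited, se-2 kept 1.44% of the WT count of miR773, 1.93% of miR396, 1.97% of miR158 and 2.12% of miR173.

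**Figure D2:**
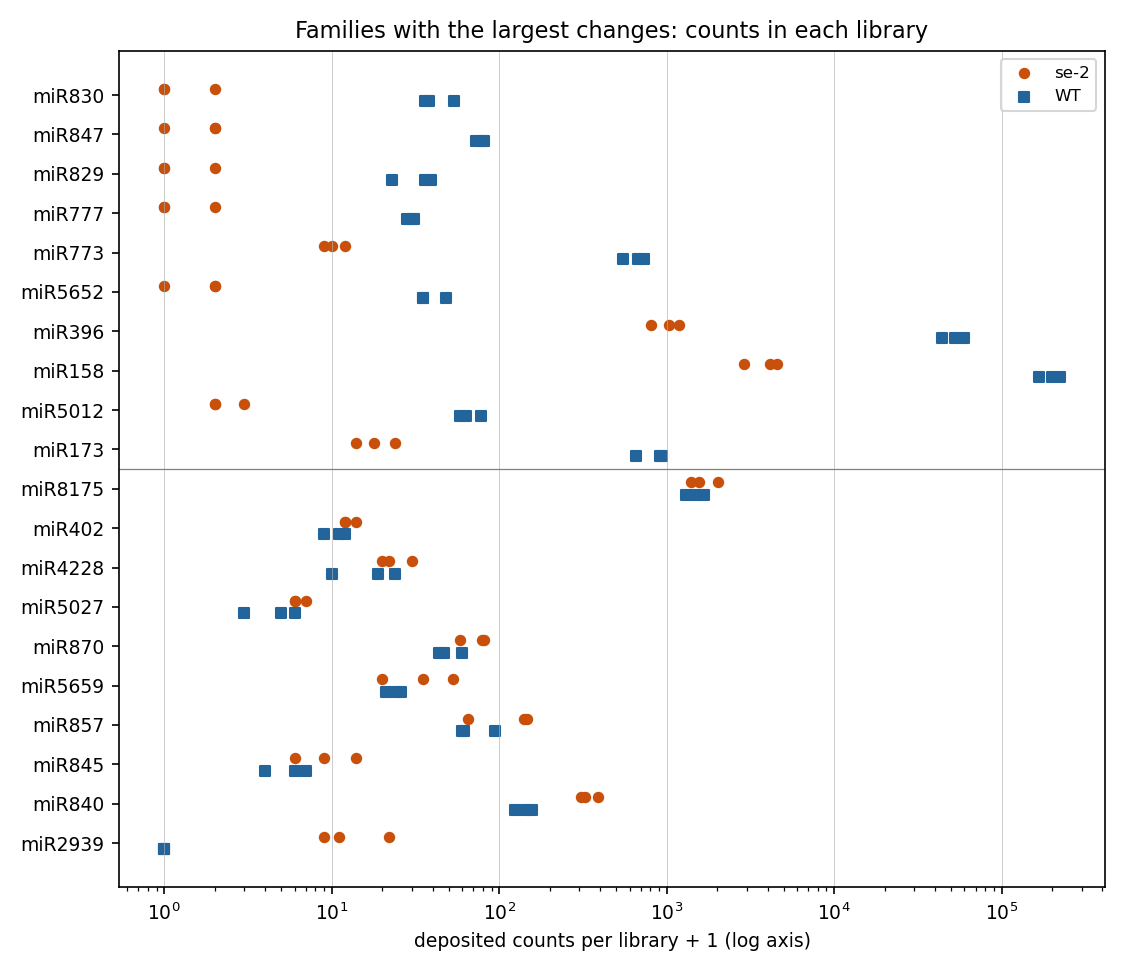
Deposited counts plus 1 on a log axis are shown for the 10 lowest (top) and 10 highest (bottom) called families, with se-2 libraries as circles above WT libraries as squares. The se-2 counts of the lowest 10 lie far left of the WT counts, while those of the highest 10 overlap the WT counts except in miR840 and miR2939.

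At the other end, the deposited counts of se-2 and WT libraries overlapped or touched in 8 of the 10 highest families, all but miR840 and miR2939. The host gene of miR840 is AT2G02750, in a UTR exon of which its hairpin lies in sense. Its arms had 306, 324 and 390 counts together in se-2, against 144, 124 and 157 in WT (log2 4.24, SE 0.20, and 1.80 with reference scaling). The se-2 libraries were above the WT libraries even before scaling, at 240.0% of the WT count. Its 5p arm had 171, 187 and 220 counts in se-2 and 45, 37 and 41 in WT, a 36.7-fold increase with TMM. The 3p arm had 135, 137 and 170 counts in se-2 and 99, 87 and 116 in WT (11.5-fold).

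miR2939 had 8, 10 and 21 counts in se-2 and no count in any WT library, which puts it at least 97.7-fold higher in se-2 on the TMM scale, computed against 3 counts over the WT group. It lies between genes on the plus strand of chromosome 5, at 19567038 to 19567058. The other families among the 10 highest were miR845 (log2 3.79), whose sequence matches primer binding sites of retrotransposons, miR857 (3.64), miR5659 (3.54), miR870 (3.48), miR5027 (3.43), miR4228 (3.43), miR402 (3.21) and miR8175 (3.20). miR857, which acts on a laccase transcript in low copper, had 64, 146 and 139 counts in se-2, against 59, 61 and 94 in WT. miR5027 had 5, 6 and 5 counts in se-2 and 2, 4 and 5 in WT.

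Among 26 tested families listed here as conserved, 15 were lower and 6 higher with TMM, with a median log2 of -0.58. Over all 124 families, 31.5% were lower and 56.5% higher, and the median was 1.02. With DESeq2 size factors 20 were lower and 4 higher, and with reference scaling 25 were lower and none higher, with miR395 not called (58.9% lower and 6.45% higher over all families). In all 5 scalings, 12 were lower. By entries, 50 of 122 conserved entries were lower and 28 higher, with a median of -0.37. By distinct sequence, 41 of 81 conserved ones were lower and 15 higher (median -0.70), beside 66 lower and 87 higher of all 200 tested. Over all 259 entries tested, against which each list of entries below is to be read, 29.3% were lower and 44.8% higher, with a median of 0.21. A family sum holds guide and passenger arms together, except in miR170, as told below. miR160, miR165, miR168 and miR169 were called lower as families although no guide sequence of theirs was. Conserved families ran from miR396 at -2.73 to miR395 at 2.71.

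**Figure D3:**
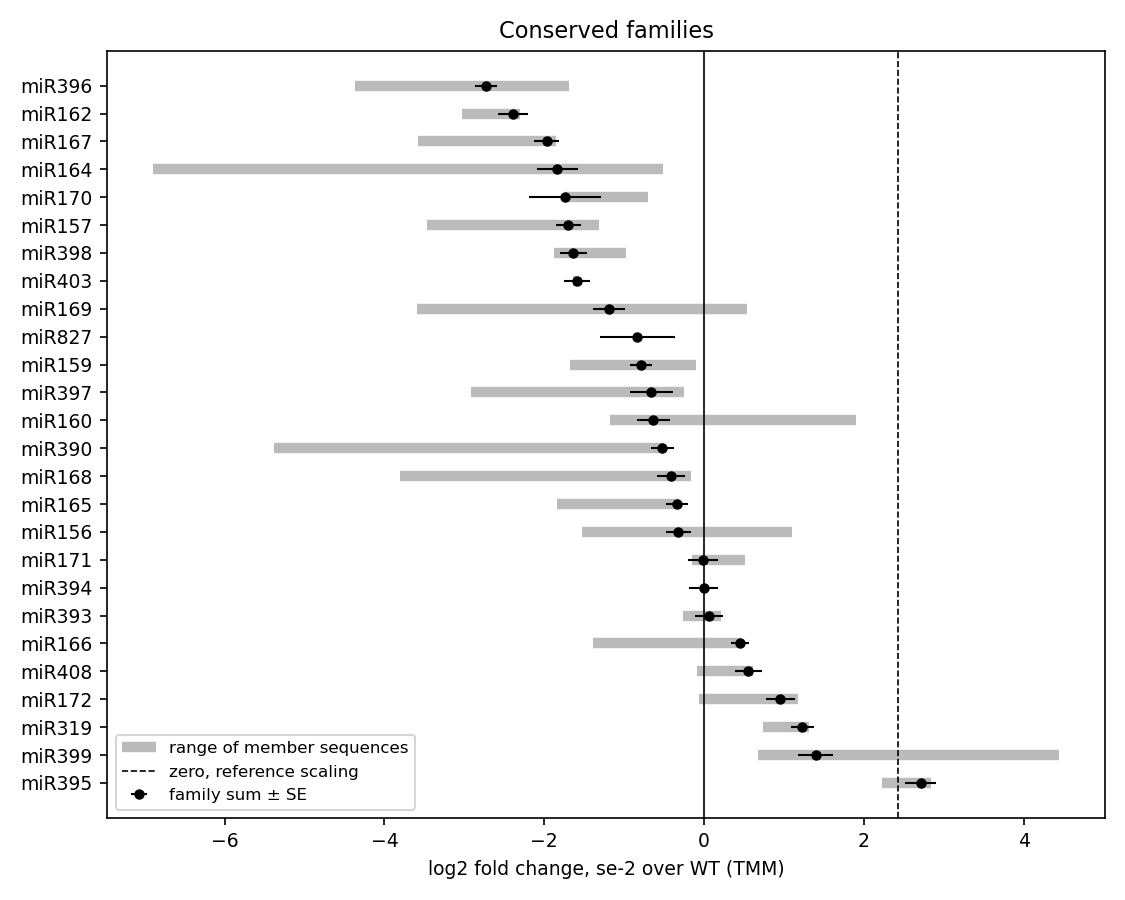
The log2 change with TMM is plotted for the 26 conserved families, with points for family sums, bars for 1 SE and grey bands for the range over member sequences tested. The dashed line marks the zero of reference scaling, and miR395 alone has its family value to the right of it.

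Of the families tied to the miRNA machinery, miR162, which targets DCL1, had 57, 71 and 97 counts in se-2 and 2935, 2579 and 3643 in WT (log2 -2.39, SE 0.19). miR403, which targets AGO2, had 292, 332 and 398 counts in se-2 and 8058, 6954 and 9209 in WT (log2 -1.59, SE 0.17). Both were called lower in all 5 scalings. miR168, which targets AGO1, was nearer the average, with 228, 483 and 529 counts in se-2 and 4107, 3752 and 4581 in WT (log2 -0.41, SE 0.18, adjusted p = 0.033 in edgeR). Its guide, miR168a-5p and the identical miR168b-5p, was not called (-0.26 each), while the passenger miR168b-3p was lower (-3.81). Of 10 tested entries in the machinery list, of 7 sequences and with passenger arms among them, 7 were lower and none was higher, beside 29.3% lower and 44.8% higher of all entries.

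Among families that act on auxin signalling, the sums of miR167 and miR160 were lower with TMM and that of miR393 was not called. miR167, which targets the response factors ARF6 and ARF8, had 488, 838 and 822 counts in se-2 and 22063, 19351 and 23343 in WT (log2 -1.97, SE 0.15). miR160, against ARF10, ARF16 and ARF17, had 27, 41 and 64 counts in se-2 and 530, 425 and 627 in WT (log2 -0.64, SE 0.21). Most of that sum is the passenger miR160c-3p, with 19, 22 and 43 counts in se-2 and 488, 398 and 584 in WT (-1.18). The miR160 guide, the arm that targets the ARF transcripts, was higher with TMM (miR160a-5p, 1.91). miR393, which acts on TIR1 and related auxin receptors, had a log2 of 0.06 (SE 0.17) and was not called, with 155, 271 and 298 counts in se-2 and 1675, 1548 and 2091 in WT. By entries, 5 of 10 in the auxin list were lower and 2 higher, beside 29.3% and 44.8% of all entries. The 2 that were higher, miR160a-5p with 12, 24 and 31 counts in se-2 and 48, 37 and 52 in WT, and miR160c-5p, have the same sequence.

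Families that act on leaf growth and polarity also spread widely. miR396 and miR164, against GRF and CUC factors, were lower, miR164 with 17, 11 and 24 counts in se-2 and 510, 397 and 551 in WT (log2 -1.84, SE 0.26). miR166, against HD-ZIP III factors, had 11930, 15393 and 18576 counts in se-2 and 83278, 78867 and 97866 in WT (log2 0.45 with TMM but -1.97 with reference scaling, both called). It was the largest family of se-2, and as deposited it kept 17.7% of its WT count, against 1.97% for miR158. miR319, which limits TCP factors, had 3030, 4846 and 4766 counts in se-2 and 12815, 12781 and 16012 in WT (log2 1.23, and -1.18 with reference scaling). In the leaf shape list, 10 of 25 entries were lower and 10 higher with TMM (29.3% and 44.8% over all). With DESeq2 size factors 15 were lower and only 2 higher (45.2% and 35.9% over all). Most of the higher calls, with the miR166 guide copies among the entries concerned, thus depended on which average was used. All 25 were lower with reference scaling (70.3% over all). The 25 entries hold 15 sequences. Those higher with TMM were 1 miR166 guide sequence, which 7 entries share, and 2 miR319 sequences, so the even split of entries is not one of sequences.

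In the phase change list miR157, against SPL factors, was lower (log2 -1.70, SE 0.16), while its relative miR156 was not called (-0.32, SE 0.16). miR156 had 1482, 1575 and 1585 counts in se-2 and 15681, 14540 and 15801 in WT. miR157 had 1255, 1203 and 1391 counts in se-2 and 34324, 30066 and 35011 in WT. miR172, which limits AP2-like factors and acts later in development, was higher with TMM (0.95, SE 0.18) and lower with reference scaling (-1.42). Over the list, 9 of 21 entries, of 14 sequences, were lower and 5 higher, beside 29.3% and 44.8% of all entries.

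Among families of nutrient supply, the copper families miR398 (log2 -1.64, SE 0.17) and miR397 (-0.66, SE 0.27) were lower. The 2 tested miR397 sequences differed, 1 called lower at -2.91 and 1 not called at -0.25, so the family value holds for neither. miR408 was higher with TMM (0.55, SE 0.17) and lower with reference scaling (-1.86). The copper list had 7 of 11 entries lower and 2 higher, beside 29.3% and 44.8% of all entries. miR399, which targets the PHO2 transcript in the phosphate response, was higher with TMM (1.40, SE 0.22) and lower with reference scaling (-1.004). Its members differed in their calls. miR399d, with 3, 6 and 4 counts in se-2 and 1, 2 and 1 in WT, was higher under all 5 scalings. So was miR399f, with 4, 8 and 5 counts in se-2 and 2, 3 and 2 in WT. miR399b, with 20, 44 and 48 counts in se-2 and 168, 153 and 220 in WT, changed direction with the scaling.

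The sulphate family miR395 was the conserved family least reduced in se-2. It had 89, 132 and 152 counts in se-2 libraries, against 153, 110 and 182 in WT libraries (log2 2.71, SE 0.20), and the deposited counts overlapped. With reference scaling it was at 0.29 and not called. All 5 tested miR395 entries, of 2 distinct sequences, were higher with TMM. In the phosphate list 4 of 6 tested entries were higher and none lower with TMM, but 3 of the 6 fell short of the filter in a WT library and passed it with the help of their se-2 counts, so that count is no support for the list. miR827 was at -0.84 and not called.

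The other conserved families lay between. miR170 (log2 -1.74) and miR169 (-1.19) were lower in all 5 scalings, and miR159 (-0.79) and miR390 (-0.52) were lower as well. A sequence shared by families was counted in a single family, so the miR170 value rests on miR170-3p alone. That arm had 1, 2 and 6 counts in se-2 and 99, 58 and 78 in WT. The larger arm, miR170-5p, is identical to miR171a-5p and had a log2 of -0.70 as an entry. miR165, which shares the targets of miR166, was at -0.34 (adjusted p = 0.029 in edgeR). miR171 (-0.01) and miR394 (-0.01) sat at the average of the pool and were not called with TMM, although both were lower with reference scaling (-2.46 and -2.47).

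Outside the conserved set, the older families of Brassicaceae had 5 of 9 families lower and 3 higher (median log2 -0.90). miR161, which targets PPR transcripts, had a log2 of -1.49 (SE 0.13). miR163, which targets methyltransferases, had 117, 263 and 227 counts in se-2 and 4778, 5490 and 4677 in WT (log2 -1.72, SE 0.20). miR391 (0.87), miR472 (1.08) and miR402 (3.21) were higher with TMM. Triggers of secondary siRNAs, a list that includes miR173, miR161 and miR390, had 9 of 12 entries lower and 2 higher, beside 29.3% and 44.8% of all entries. It holds miR161-1 and miR161-2, which carry the same reads.

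The remaining young families had 13 of 46 lower and 25 higher, close to the 31.5% and 56.5% of all families, with a median of 0.72. miR824, which limits the MADS factor AGL16, was lower as a family (-0.94, SE 0.18). Its arms differed, with miR824-3p lower (-1.73) and miR824-5p not called (0.33), so the family value does not hold for both. Of families whose precursors DCL4 cuts, miR822 was higher with TMM (0.73, SE 0.17) and lower with reference scaling (-1.69). miR839 was higher with TMM (2.10, SE 0.26) and not called with reference scaling (-0.33). The miR869 family was lower (-1.11, SE 0.53), but its sum holds the same reads in 2 overlapping entries, neither of them called. Each of those entries had 0, 1 and 3 counts in se-2. By entries that list had 3 of 5 higher and none lower (44.8% and 29.3% over all). Late families had 31 of 38 higher and 6 lower, and the 5 questioned families tested were higher. All 6 tested questioned entries and 17 of 52 late ones fell short of the filter in a WT library and passed it with the help of their se-2 counts, so these counts are a description only. With reference scaling, which sets these entries equal by construction, 2 late families were higher and 10 lower, and no questioned family was called.

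An entry low in WT could enter the test through se-2 alone. Of the 259 tested entries, 50 were short of the filter in a WT library, and 43 of these were called higher. Another 36 were short of it in an se-2 library, 20 of them called lower, and 178 reached it in all 6 libraries. The other 97 profiles did not pass the filter on low counts. Among the 356 profiles 25 had no count in any se-2 library and 3 none in any WT library.

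Some single entries had lower log2 changes than any family. miR164c-3p had no count in se-2 and 24, 28 and 26 in WT, at least 3.41-fold lower on the TMM scale against 3 counts over the se-2 group. miR390b-3p had 1, 0 and 0 counts in se-2 and 125, 87 and 144 in WT (log2 -5.39, SE 0.69). Both are passenger arms. The size for miR164c-3p is a bound, so its place among the lowest entries is not resolved. That for miR390b-3p rests on a single se-2 read. miR173-5p, the TAS1 and TAS2 trigger, had 3, 2 and 1 counts in se-2 and 481, 292 and 407 in WT (log2 -4.63, SE 0.42, adjusted p = 5.4e-14 in edgeR). miR396a-3p had 7, 12 and 9 in se-2 and 1371, 1499 and 1611 in WT (log2 -4.37, SE 0.27, adjusted p = 1.3e-19 in edgeR). The remaining 12 lowest were miR844-3p, miR847, miR168b-3p, miR169b-3p, miR167a-3p, miR162b-5p, miR157c-3p and miR777, with log2 changes of -4.40 to -3.37.

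Of these 12 entries, 8 were passenger arms of conserved families: those of miR164c, miR390b, miR396a, miR168b, miR169b, miR167a, miR162b and miR157c. miR157c-3p was the most abundant of them, with 107, 71 and 104 counts in se-2 and 9009, 6551 and 9619 in WT. Across the list of passenger arms, 28 of 39 tested entries were lower and 2 higher with TMM (median log2 -1.65), beside 29.3% lower, 44.8% higher and a median of 0.21 over all entries. With reference scaling all 39 were lower, beside 70.3% over all. Guide arms had 22 of 83 lower and 26 higher with TMM (median -0.26), and 73 lower and 3 higher with reference scaling. With DESeq2 size factors 47 guide entries were lower and 15 higher. For passenger entries these were 32 lower and none higher, beside 45.2% and 35.9% of all entries. The contrast between the arms was thus smaller under reference scaling. The 83 guide entries hold only 47 sequences and the 39 passenger entries 34, and copies of a sequence share reads. By sequence, 15 of 38 guides that start with U were lower and 8 higher. Of 4 guides that start with A, 1 was lower and 3 higher. Of 4 that start with C, none was lower and 2 were higher, and the 1 with G was not called. Passenger arms summed to 1.49% of all counts in se-2, against 4.69% in WT. These totals count the reads of repeated guide sequences more than once, and with 1 entry per sequence the shares were 3.07% in se-2 and 6.33% in WT.

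The ratio of the 2 arms of a hairpin within a library does not depend on any scaling, and it was tested in 54 hairpins with both arms named and enough counts. The ratio changed in 32 (59.3%), in 20 towards the arm more abundant in WT (37.0%) and in 12 towards the less abundant arm (22.2%). By position, 18 moved towards the 3p arm and 14 towards the 5p arm. Of 41 conserved hairpins, 21 moved towards the listed guide arm, 5 towards the passenger and 15 were not called. In 10 of the 41 the listed passenger was the more abundant arm in WT, and in 34 of the 54 an arm shares its sequence with another entry, so its reads cannot be placed on 1 hairpin. The tallies therefore count some reads more than once. MIR157a and MIR157b had nearly the same counts in both arms, as had MIR398b and MIR398c, and each of them counted towards the guide. Among the 20 hairpins with no shared sequence, 5 moved towards the more abundant arm, 5 towards the other and 10 were not called.

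**Figure D4:**
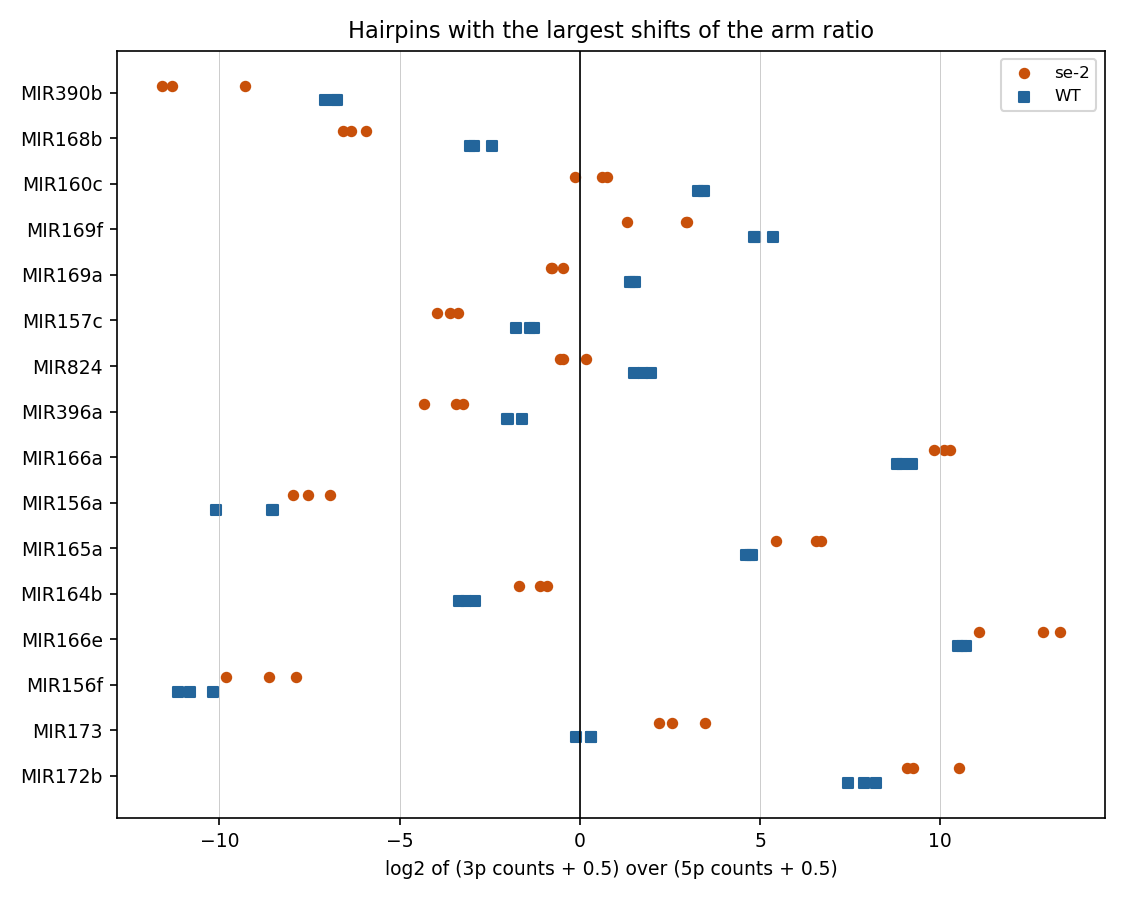
The log2 ratio of 3p to 5p counts (0.5 added to each) is plotted for every library in the 16 hairpins with the largest called shifts, 8 in each direction, se-2 circles above WT squares. The libraries of the 2 genotypes do not overlap in any of the 16 hairpins, and in MIR160c, MIR169a and MIR824 the se-2 ratios lie near 0 and the WT ratios above 1.

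The largest shift towards 5p was that of MIR390b, whose 5p arm feeds the TAS3 pathway. Its 3p arm made up 0.106%, 0% and 0% of both arms in the se-2 libraries, and 0.886%, 0.735% and 0.923% in the WT libraries (log2 ratio change -4.88, SE 0.82, adjusted p = 4.6e-07 in edgeR). The size of this shift rests on 1, 0 and 0 counts of the 3p arm in se-2. The 5p arms of MIR390a and MIR390b have the same sequence, so the 5p counts may hold reads of both. In MIR168b, from which an AGO1-regulating miRNA comes, the 3p arm made up 0.985%, 0.937% and 1.52% in se-2 and 10.8%, 11.6% and 15.7% in WT (-3.57, SE 0.32). The ratio of its paralogue MIR168a was not called, with a 3p share of 7.69%, 8.96% and 10.5% in se-2 and 9.27%, 8.16% and 9.29% in WT (0.06, SE 0.21, adjusted p = 0.83 in edgeR). The 5p arms of MIR168a and MIR168b have the same sequence and share reads, so only the 3p counts tell the 2 hairpins apart. miR168b-3p had 2, 4 and 7 counts in se-2 and 396, 392 and 643 in WT, whereas miR168a-3p had 18, 44 and 56 in se-2 and 352, 282 and 376 in WT. The 3p arm of MIR168b had fewer counts than that of MIR168a in every se-2 library and more in every WT library.

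In MIR157c the 3p arm made up 8.75%, 5.997% and 7.65% of both arms in se-2 and 27.7%, 22.8% and 29.1% in WT (-2.16, SE 0.25). MIR157c has its 5p sequence in common with MIR157a and MIR157b, so these shares may hold their 5p reads. MIR396a, whose arms are both unique in sequence, had a 3p share of 4.46%, 9.30% and 8.04% in se-2 and 19.7%, 24.9% and 19.95% in WT (-1.84, SE 0.29). MIR396b moved the other way, with a 3p share of 2.18%, 1.77% and 0.840% in se-2 and 0.724%, 0.773% and 0.713% in WT (1.05, SE 0.39). The 2 members of the miR396 family thus shifted in opposite directions, with no overlap between genotypes in either. The MIR396b shift rests on 14, 16 and 9 counts of the 3p arm in se-2, and se-2 replicate 3 lay near the WT libraries. The 5p arms of the 2 hairpins differ by 1 base (G21U), so reads of one may be counted for the other.

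In 3 hairpins with a called ratio the 5p arm was the larger in all 3 se-2 libraries (MIR169a and MIR840) or in 2 of them (MIR824), and the smaller in every WT library. The 5p arm of MIR824 made up 46.9%, 59.4% and 58.2% in se-2 and 26.0%, 20.4% and 22.9% in WT (-2.06, SE 0.19). The 5p arm of MIR169a, the listed guide, made up 58.2%, 63.5% and 63.3% in se-2 and 25.5%, 26.4% and 27.7% in WT (-2.17, SE 0.24). In MIR840 the 5p share was 55.9%, 57.7% and 56.4% in se-2 and 31.2%, 29.8% and 26.1% in WT (-1.68, SE 0.22). None of these 3 hairpins shares an arm sequence with another entry, and in each the se-2 and WT shares did not overlap. MIR160c, with 5p shares of 36.7%, 52.2% and 39.4% in se-2 and 9.29%, 8.51% and 8.32% in WT, and MIR169f also moved towards their listed guide, though with shared sequences.

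Towards the 3p arm, MIR173 had the largest shift among hairpins with unique arms. Its 5p arm made up 13.0%, 15.4% and 5.88% of both arms in se-2 and 51.7%, 44.4% and 44.5% in WT (2.77, SE 0.52, adjusted p = 4.4e-06 in edgeR). That arm is the one that triggers trans-acting siRNAs. Its 3p arm had 20, 11 and 16 counts in se-2 and 450, 365 and 508 in WT and was itself lower in all 5 scalings. MIR172b (2.86, SE 0.94) and MIR156f (1.90, SE 0.72) rested on 0 to 5 counts of the minor arm in each se-2 library. MIR166e (1.85), MIR164b (1.77), MIR165a (1.54), MIR156a (1.40) and MIR166a (1.15) completed the 8 largest shifts towards 3p. The minor arm was also low in se-2 in MIR166e (5, 1 and 2 counts), MIR164b (4, 3 and 4) and MIR156a (10, 7 and 5). All of the 8 except MIR173 have an arm sequence that another entry shares.

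In other hairpins both arms were lower and the ratio was not called. In MIR158a the 5p arm had 28, 11 and 16 counts in se-2 and 1163, 714 and 731 in WT, and the 3p arm 2826, 4067 and 4506 in se-2 and 195765, 164540 and 219944 in WT. The ratio was not called (-0.15, SE 0.35). MIR403 was likewise not called, with 5p shares of 6.85%, 6.63% and 7.04% in se-2 and 7.53%, 6.74% and 6.93% in WT (0.05, SE 0.24). Over 57 hairpins with both arms tested as entries, both arms were lower in 19, in 18 of them under all 5 scalings, and both were higher in 9. The arms were called in opposite directions in 3, 1 arm alone was called in 19 and neither in 7. These counts too include hairpins with nearly the same reads, such as MIR157a and MIR157b. As a description, the log2 changes of the 2 arms had a Pearson's r of 0.85 and a Spearman's rho of 0.84 over 19 hairpins with no shared sequence, whose arms come from the same libraries.

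Near-identical miRNAs were also compared within each library, in 13 pairs of equal length with 1 to 3 base differences and a mean of at least 20 counts in each genotype, a rule chosen after values were seen. In 8 pairs the ratio did not overlap between genotypes. Each of these 8 has an exact two-sided permutation p of 0.1, the smallest possible with 3 against 3 libraries, and an adjusted p of 0.163 over the 13 pairs, so none could pass 0.05. Capitals below mark the bases that differ in 2 pairs with a shifted ratio and in 1 pair without a shift.
miR159a: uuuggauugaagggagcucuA
miR159b-3p: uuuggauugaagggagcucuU
miR165a-3p: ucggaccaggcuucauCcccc
miR166a-3p: ucggaccaggcuucauUcccc
miR398a-3p: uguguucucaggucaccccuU
miR398b-3p: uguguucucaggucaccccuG

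miR159a and miR159b-3p, the main regulators of GAMYB-like factors, differ by A21U, counted from the 5′ end. miR159a had 3475, 3588 and 3922 counts in se-2 and 29460, 28726 and 35158 in WT, and miR159b-3p had 1628, 1632 and 1794 in se-2 and 39783, 40392 and 48015 in WT. The ratio of miR159a to miR159b-3p was 2.13, 2.20 and 2.19 in the se-2 libraries and 0.741, 0.711 and 0.732 in the WT libraries, a 2.99-fold difference that needs no scaling. In se-2 miR159a was thus the larger of the pair in every library, and in WT miR159b-3p was. Alone, miR159b-3p was called lower in all 5 scalings (log2 -1.67, SE 0.14), while miR159a was not called with TMM (-0.10, SE 0.13).

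miR165a-3p and miR166a-3p differ by C17U, and their ratio was 0.0933, 0.109 and 0.104 in se-2 and 0.192, 0.169 and 0.166 in WT, a 1.72-fold difference. miR319a over miR319c, a C20U pair, was at 12.7, 13.9 and 11.9 in se-2 and 8.37, 8.22 and 9.40 in WT. The widest ratio was that of miR156a-5p over miR157d, at 49.6, 99.1 and 56.9 in se-2 and 12.03, 11.8 and 11.1 in WT, on only 26, 14 and 24 counts of miR157d in se-2. In 5 pairs the libraries overlapped, as in miR398a-3p over miR398b-3p (U21G), with 0.1004, 0.0788 and 0.0697 in se-2 and 0.0999, 0.0768 and 0.0949 in WT. How reads with a mismatch were placed is not given in the sources used here, so reads of one member may be counted for its near-copy.

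**Figure D5:**
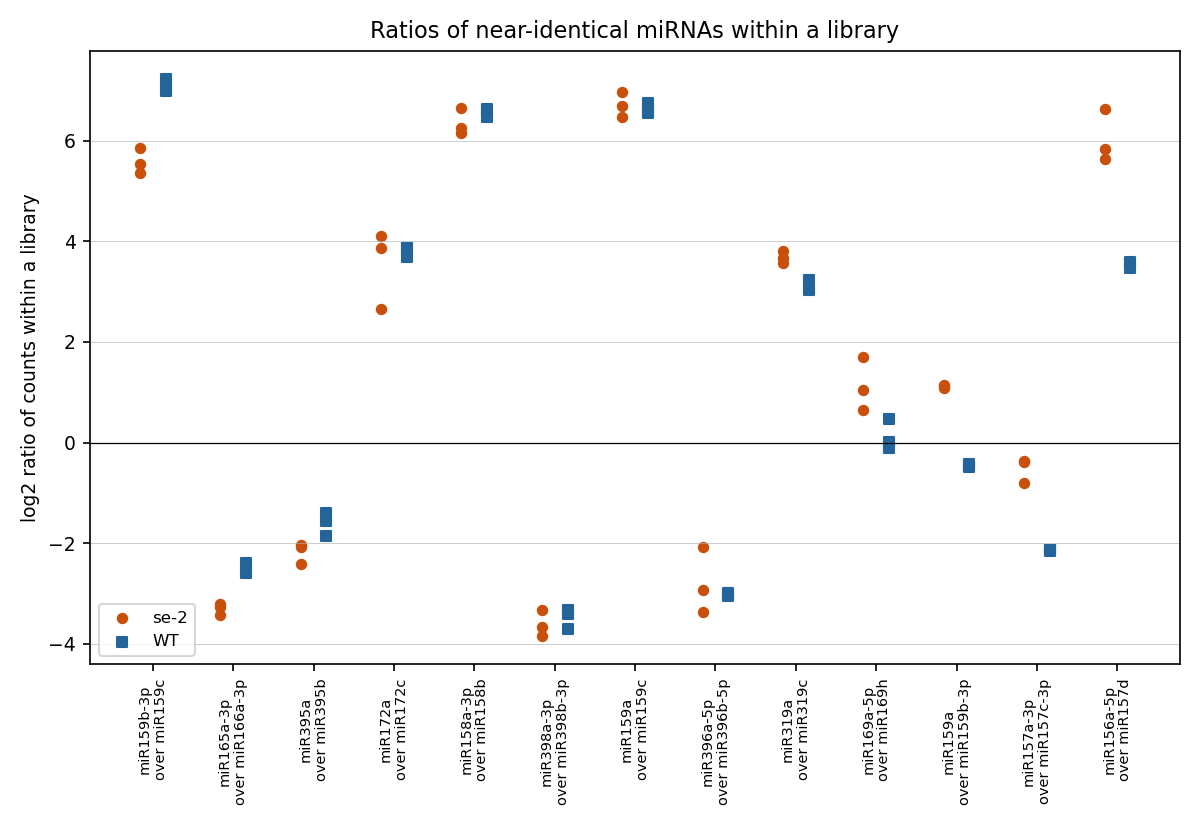
The log2 ratio of counts of 2 near-identical miRNAs within a library is plotted for 13 pairs, ordered by the difference between genotypes, se-2 circles left of WT squares. The 3 se-2 values of miR159a over miR159b-3p lie above 0 and the 3 WT values below it, while pairs in the middle overlap.

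Of the tested sequences, some share a seed, 24 seeds in all, and the range of log2 changes within a seed was between 0.16 and 6.23, with a median of 1.41. In the seed group GACAGAA of miR156 and miR157, 4 tested sequences ran from -2.74 to -0.29. In the seed group UUGGAUU of miR159, 3 ran from -1.67 to -0.10, and in GCCAAAG of miR399, 4 ran from 0.67 to 4.45. Narrower groups were CCCAAAU of miR158, with -2.71 and -2.50, UCCACAG of miR396, with -2.75 and -2.45, and GUGUUCU of miR398, with -1.46 and -1.30.

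Sequence and position were described over the 200 distinct mature sequences tested (median log2 0.21, 30.5% of them lower in all 5 scalings). The first base is of note because ARGONAUTE proteins sort small RNAs by it, AGO1 taking mostly a 5′ U and AGO2 mostly a 5′ A. The 46 sequences that start with A had a median of 1.44, and 4.35% of them were lower in all scalings. Those that start with G numbered 21, with a median of -1.53 and 61.9% lower in all, and those with U numbered 112, with a median of -0.15 and 33.9%. Among conserved guide arms alone, 4 sequences that start with A had a median of 0.78, 4 that start with C a median of 1.35 and 38 that start with U a median of -0.40. The part that arm and family play in the values by first base was not tested. Sequences in introns had a median of 1.002 (28 sequences), those in UTR exons 0.86 (23) and those between genes -0.13 (138).

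The shape of the precursor was set beside the change as a description. Over the 54 tested hairpins, the distance between the arms and the log2 change of the more abundant arm had a Pearson's r of 0.01 and a Spearman's rho of 0.06. The predicted folding energy per 100 nt had an r of -0.04 and a rho of -0.01. These are descriptions across hairpins that share libraries and, in part, arm sequences. The more abundant arm was at a log2 of -2.71 in MIR158a, with 22 nt between its arms, at -2.45 in MIR396a, with 91 nt, and at -1.73 in MIR824, with 572 nt.

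Some entries cannot be read as separate measurements. Among the 378 entries with a count, 120 share their mature sequence with another. Of 43 sequences with more than 1 counted entry, the entries' total counts differed by more than 1.5 times in 8, and by up to 10.8 times, as between miR169b-5p, with 8, 15 and 19 counts in se-2 and 201, 117 and 159 in WT, and miR169c, with 1, 0 and 1 in se-2 and 18, 18 and 10 in WT. Entries that overlap on the same strand with different sequences had the same or nearly the same counts. Of these, miR161-1 and miR161-2, which overlap on chromosome 1, had 999, 1365 and 1447 against 1000, 1365 and 1447 counts in se-2, and equal counts of 27302, 26304 and 29073 in WT. Overlapping pairs of miR1886 and miR869 had equal or nearly equal counts too, and the family sums of these 3 families hold such reads in both entries. Of the 22 entries dropped as identical profiles, 11 had the mature sequence of the entry kept, and 11 had another sequence.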

How the data were processed

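Small RNA of 19 to 24 nt from leaves was gel-purified, ligated to adapters and sequenced, per the labels' protocols. Deposited values are the authors' raw read counts, 1 file per library and 1 row per mature miRNA, with no normalization. Bowtie 1.1.2 and TAIR10 are named in the submitters' processing notes, while the counting tool is not given in the sources used here. All 427 names were matched to RefSeq TAIR10.1. Genotypes came from the sample titles. Entries, family sums (entries of the same sequence averaged and rounded, then summed) and arm ratios (2 arms per library, with library as a term) were tested by edgeR 4.0.16 (quasi-likelihood, robust, R 4.3.3) with Benjamini-Hochberg adjustment at 0.05. Entries were filtered with filterByExpr (minimum count 10), and hairpins needed at least 10 counts over both arms in every library. Scripts were tested on simulated counts. Hairpins were folded with ViennaRNA 2.7.2.

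The labels do not say whether libraries came from separate plants, so p-values measure the spread between these libraries. Libraries of the same genotype were not duplicates, with counts that varied beyond sampling (chi-square divided by its degrees of freedom, 2.85 to 37.4). Named entries were the 12 lowest and 12 highest called entries with at least 10 CPM in a group and no overlap, the 10 most abundant sequences and the 3 most abundant of each list, with the 10 lowest and highest called families and the 8 largest arm shifts each way. The other families and hairpins that the text names were chosen after their values were seen. Members, lists and rules were chosen with earlier results of these data known.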

Additional observations from a re-analysis of the deposited data

How the results depend on the processing

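With entries, the 116 higher and 76 lower calls became 16 and 182 with reference scaling, 5 and 200 with unscaled counts, and 27 and 172 with reference scaling without miR8175, an alternative chosen after seeing the data. DESeq2 size factors gave 117 lower. Asking for at least 10 counts in both groups left 172 entries tested and 77 higher, fewer entries being tested. Leaving out 1 library gave 76 to 118 higher and 74 to 86 lower, the 76 without WT replicate 3, where 196 entries were tested. Families, 70 higher and 39 lower, gave 8 and 73 with reference scaling, 2 and 83 unscaled and 46 higher with the DESeq2 test, and 50 to 71 higher and 30 to 39 lower without 1 library. Arm ratios, 18 towards 3p and 14 towards 5p, gave 10 towards 3p with limma on the log ratio and 6 and 4 among the 20 hairpins with no shared sequence. Leaving out 1 library gave 9 to 17 towards 3p and 11 to 16 towards 5p, with 11 without se-2 replicate 1, 9 without se-2 replicate 2 and 10 without WT replicate 3 towards 3p; the cause was not tested. The log2 of summed counts was -3.09, was -3.23 to -2.94 without 1 library, and was -3.69 with a single entry per sequence.

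Correlations of deviations between same-numbered libraries were 0.09, 0.08 and 0.02, within the range of differently numbered ones (-0.22 to 0.16). So few values cannot show whether same-numbered libraries share a batch. A replicate block gave 113 entries higher and 71 lower, 68 and 37 families, and, with limma on the arm ratio, 5 hairpins towards 3p and 11 towards 5p.

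DESeq2 size factors took 12 tested entries below 0 that were above it with TMM, and none of the 12 was called lower. Of named entries, miR393b-3p, not called with TMM, was at -0.22 with them. The sign changes that follow came with reference scaling or unscaled counts, by construction of the shift. With reference scaling, unscaled counts and reference scaling without miR8175 in that order, the log2 was -1.95, -2.49 and -1.63 for miR166a-3p, -1.17, -1.70 and -0.85 for miR319b, -1.72, -2.26 and -1.39 for miR822-5p, -1.11, -1.66 and -0.77 for miR822-3p, -2.19, -2.73 and -1.89 for miR393b-3p, -1.80, -2.33 and -1.50 for miR408-3p, -1.73, -2.27 and -1.43 for miR399b and -0.33, -0.85 and -0.015 for miR839-5p. With reference scaling and unscaled counts it was -0.32 and -0.86 for miR5026 and -0.19 and -0.73 for miR395a. Unscaled, it was -0.43 for miR5642a, -0.36 for miR405b, -0.28 for miR407 and -0.094 for miR395f. Placing the 2 tested entries with no count in a genotype at their bounds left the medians of the lists as given.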
